A study of Mus musculus with 354 samples.

Results

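Among GFP+ cells sorted from neonatal mouse cochleae as supporting cells (SCs), 67 of 354 had high *Dcn* and low *Epyc*, and these 67 Dcn-high, Epyc-low cells are described here. They were chosen by measured values: a total of at least 100000 counts, *Dcn* at 500 CPM or more (CPM, counts scaled to a total of 1000000 in each cell), *Epyc* under 500 CPM, and fewer than 4 of 7 pillar and Deiters cell genes (*S100a1*, *Cryab*, *Emid1*, *Smagp*, *Prss23*, *Lfng*, *Hes5*) at 20 CPM. The question was whether they are epithelium of the greater epithelial ridge or mesenchyme, and whether CA-ERBB2 cells among them differ from Control cells. For comparison, the other cells above the count limit were divided into 72 pillar and Deiters-like cells (4 or more of the 7 genes), 34 Epyc-high cells (*Epyc* at 500 CPM or more) and 146 cells of none of these classes, and 35 cells fell under the count limit.

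CA-ERBB2 cells came from pups with TetON-CAERBB2, a transgene for a constitutively active ERBB2 receptor, on top of ROSA-floxed-rtTA/GFP and Fgfr3-iCre, whereas Control littermates had only the last 2 of these alleles. The shared protocol gives tamoxifen (75 mg/kg) at postnatal days P0 and P1, doxycycline (100 mg/kg) at P2 and collection at P3 for both genotypes, whereas only the CA-ERBB2 samples carry a treatment label of their own. The Cre is driven by *Fgfr3*, a receptor gene of pillar and Deiters cells, and GFP marks cells in which it has acted. For each genotype, the data hold 59 wells under each of 3 numbers in the sample titles, and each number was taken as a plate. Pups were pooled, and the plate was taken as the replicate.

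The cochlear duct is an epithelium that lies on mesenchyme. The greater epithelial ridge is a transient part of this epithelium that secretes much of the tectorial membrane, whereas the mesenchyme gives rise to fibrocytes of the spiral limbus and spiral ligament and to the otic capsule. Decorin (*Dcn*) and epiphycan (*Epyc*) are small leucine-rich proteoglycans, extracellular proteins that bind collagen fibrils, and connective tissue is the best known source of decorin.

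The 67 cells comprised 35 CA-ERBB2 cells (19, 9 and 7 on plates 1 to 3) and 32 Control cells (20, 6 and 6). Their totals ran from 610153 to 4571990 counts with a median of 3065420, and no cell under the count limit reached 500 CPM of *Dcn*. The number of genes detected differed more between plates than the totals did: the 39 cells on the plates numbered 1 had a median of 8893 genes (4503 to 11621), and the 28 cells on the other plates a median of 3156 (535 to 13443). The mitochondrial share had a median of 3.21% and exceeded 20% in 1 cell. No 2 of the 67 wells held identical counts.

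*Dcn* ranged from 507 to 24420 CPM with a median of 2548 CPM. 11 cells lay under 1000 CPM, and 7 lay at 10000 CPM or more. The cell nearest to the *Dcn* limit inside the rule had 507 CPM and the nearest outside had 437 CPM, and the corresponding values for *Epyc* were 455 and 598 CPM. Of the cells that met the other criteria, 12, 32, 16 and 7 had 0, 1, 2 and 3 of the pillar and Deiters genes and were kept, while 3, 2, 4 and 6 cells with 4, 5, 6 and 7 genes were not.

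Most of the cells carried mesenchyme genes and few epithelial ones. A cell was called mesenchyme-marked where at least 4 of 12 mesenchyme genes and fewer than 4 of 12 epithelium genes reached 20 CPM, and epithelium-marked in the opposite case. By this count, 59 of the 67 cells (88.1%, exact binomial 95% interval 77.8 to 94.7%) were mesenchyme-marked, 1 was epithelium-marked, 1 had both and 6 had neither. By plate, the mesenchyme-marked share ran from 66.7% on Control plate 3 to 95% on Control plate 1, a spread that the interval does not cover. The median cell had 8 of the 12 mesenchyme genes, 1 of the 12 epithelium genes and 2 of 12 genes of cochlear epithelium. *Dcn* is itself a gene of connective tissue. The rule also left out cells with high *Epyc* or with 4 or more pillar and Deiters genes. These counts therefore describe the cells that the rule selected and are no test against the other cells.

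The other classes showed a different balance, which is given as a description. Of the 72 pillar and Deiters-like cells, 38 were epithelium-marked, 18 had both, 9 were mesenchyme-marked and 7 had neither, with medians of 2 mesenchyme, 8 epithelium and 7 cochlear epithelium genes. Of the 34 Epyc-high cells, 11 were mesenchyme-marked, 4 epithelium-marked, 3 had both and 16 had neither, with medians of 3 mesenchyme, 1 epithelium and 2 cochlear epithelium genes. Those Epyc-high cells that also had *Dcn* at 500 CPM were mesenchyme-marked in 8 of 13 cases, against 3 of 21 for those under 500 CPM. Cells of none of the classes were mesenchyme-marked in 48 of 146 cases, with medians of 2 mesenchyme, 0 epithelium and 1 cochlear epithelium genes. A low number of epithelium genes therefore did not tell the group apart from Epyc-high cells or from cells of none of the classes.

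**Figure D1:**
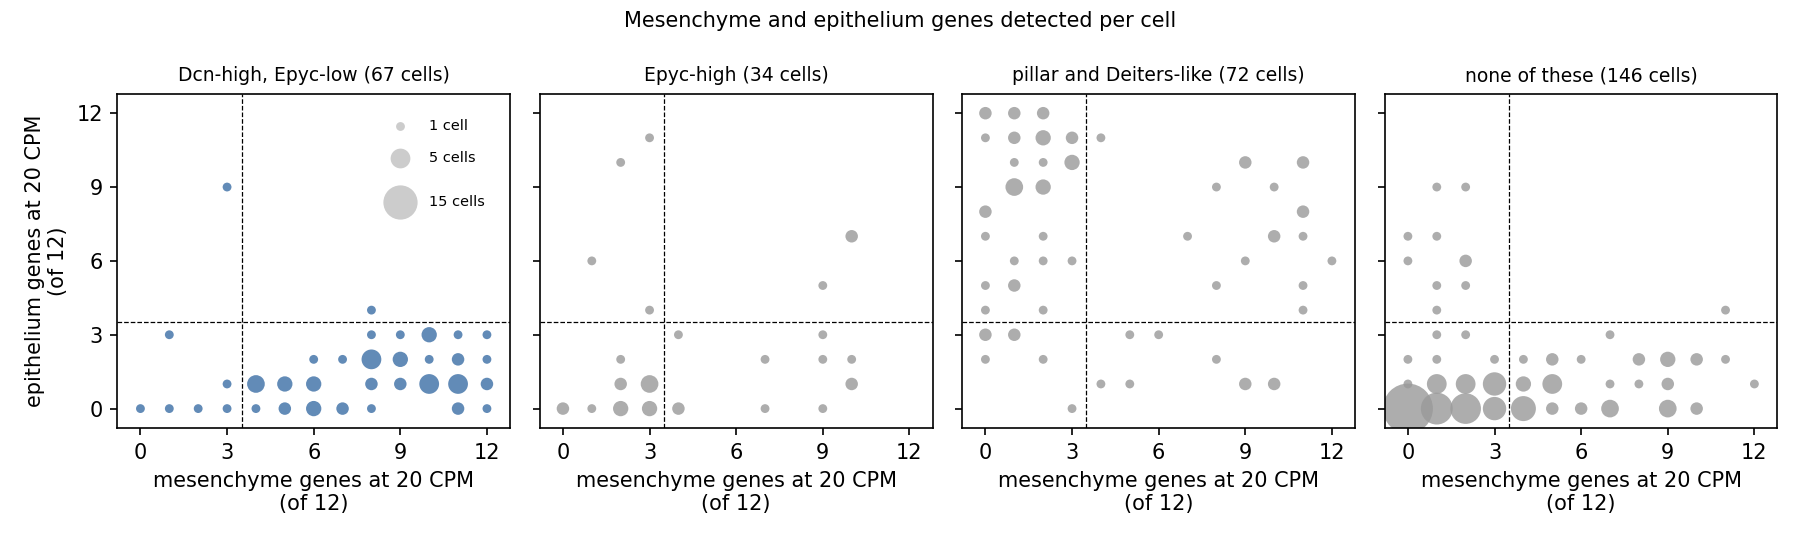
Number of the 12 epithelium genes (vertical axis) against the number of the 12 mesenchyme genes (horizontal axis) at 20 CPM in each cell, by class, with the area of a point giving the number of cells and dashed lines the limit of 4 genes. Of the Dcn-high, Epyc-low cells (blue), 59 of 67 lie in the lower right, whereas 38 of the 72 pillar and Deiters-like cells lie in the upper left.

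Because cells on the plates numbered 1 held more genes, the count was repeated there. Of 39 cells, 37 were mesenchyme-marked (94.9%), 1 was epithelium-marked and 1 had both, while on the same plates 2 of 33 pillar and Deiters-like cells, 4 of 9 Epyc-high cells and 24 of 37 cells of none of the classes (64.9%) were mesenchyme-marked. On these plates the cells had a median of 10 mesenchyme genes, against 5 in the 28 cells of the plates numbered 2 and 3. When each cell was thinned to 100000 counts and 1 count taken as detection, 88.1% of the 67 cells were mesenchyme-marked.

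The collagen genes of loose connective tissue led the mesenchyme list. *Col1a2* (chr6:4504814-4541544, GRCm38), which encodes a chain of type I collagen, reached 20 CPM in 64 of 67 cells with a median of 5225 CPM, and *Col3a1*, the chain of type III collagen, in 59 cells with a median of 1289 CPM. *Col1a2* was also at 20 CPM in 46 of the 72 pillar and Deiters-like cells (63.9%), with a median of 59.4 CPM. Against that class, the levels thus differed more than the share of cells with the gene did. Of the Epyc-high cells, 26 of 34 were at 20 CPM, with a median of 1064 CPM. Of the cells of none of the classes, 79 of 146 were at 20 CPM, with a median of 87.7 CPM and a highest value of 12290 CPM.

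*Col1a1*, the other chain of type I collagen, behaved differently: 26 of 67 cells reached 20 CPM and 29 had no count. Per exon length, the median level of *Col1a1* was 0.42 RPKM and that of *Col1a2* 420 RPKM, while the means were 95.4 and 510 RPKM. No other gene of the annotation overlaps the exons of either on the same strand. *Col5a2* reached 20 CPM in 54 cells, *Col5a1* in 43, *Col12a1* in 40, *Col6a2* in 38 and *Col14a1* in 35.

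Transcription factors of the mesenchyme around the otic epithelium were frequent. *Tbx18*, a T-box factor of otic mesenchyme and the fibrocytes it forms, was at 20 CPM in 54 of 67 cells (80.6%) with a median of 562 CPM, and in 25 of 72 pillar and Deiters-like cells with a median of 0 CPM. *Pou3f4*, a POU-domain factor of otic mesenchyme, was at this level in 47 cells, *Twist1* and *Prrx1* in 41 each and *Twist2* in 27. The receptor gene *Pdgfra*, a fibroblast marker, was at 20 CPM in 45 cells and *Pdgfrb* in 34. *Postn*, a matrix gene of the same list, reached this level in 25 cells.

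Among epithelial genes, those of the cell surface and cytoskeleton were largely undetected. *Epcam*, an epithelial adhesion molecule, reached 20 CPM in 6 of 67 cells and had no count in 54, against 63 of 72 pillar and Deiters-like cells at 20 CPM. The keratin genes *Krt8* and *Krt18* reached it in 3 and 7 cells, the claudin genes *Cldn7* and *Cldn6* in 4 and 0, the splicing factor genes *Esrp1* and *Esrp2* in 2 and 11, and *Rab25*, *Grhl2* and *Marveld2* in 1, 1 and 0. For the 2 genes at 0 cells, a count of 0 of 67 allows a share of up to 4.48%.

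2 genes of the epithelium list departed from the rest. *Cdh1*, which encodes E-cadherin, was at 20 CPM in 28 of 67 cells (41.8%) and *Spint2*, a membrane protease inhibitor, in 29 (43.3%), with medians of 1.06 and 0.27 CPM. In pillar and Deiters-like cells, the 2 genes had medians of 233 and 417 CPM and were at 20 CPM in 57 and 63 of 72 cells. Whether the reads in the Dcn-high, Epyc-low cells came from those cells or from free RNA in the suspension was not tested.

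Genes of the sensory epithelium and its ridges were present in a minority. *Sox2* and *Sox10*, transcription factors of SCs, were at 20 CPM in 6 and 7 cells, and *Jag1*, a Notch ligand, in 10. *Tecta* and *Tectb*, which encode tectorins of the tectorial membrane, reached 20 CPM in 23 and 32 cells, against 53 and 55 of 72 pillar and Deiters-like cells. *Otog* and *Otogl*, for the otogelins, were at this level in 4 and 8 cells. *Gjb2*, a connexin gene of both the epithelial and the connective tissue gap junction systems, reached it in 33 cells.

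**Figure D2:**
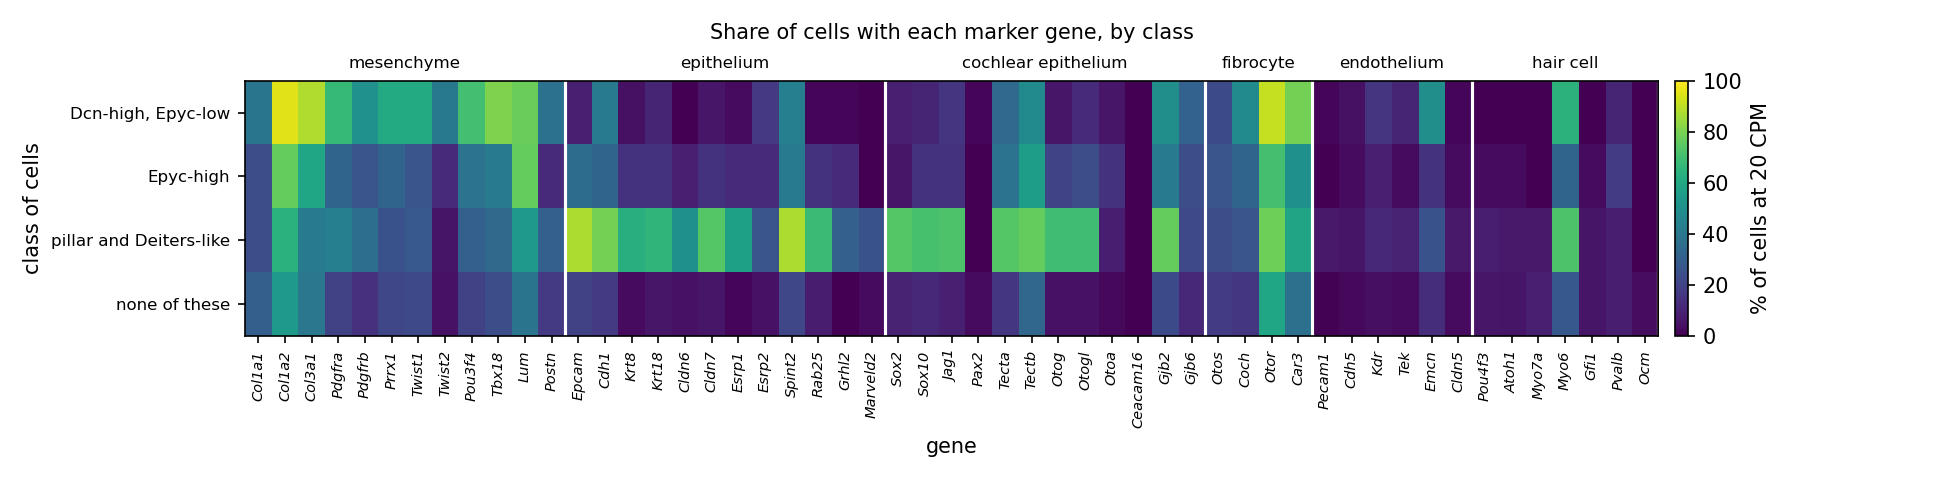
Share of cells in which each marker gene reached 20 CPM (colour, in %), with genes in columns grouped by list and the 4 classes of cells in rows. The top row shows high shares for mesenchyme genes such as *Col1a2* (95.5%) and *Tbx18* (80.6%), and low shares for epithelium genes such as *Epcam* (8.96%), which reached 87.5% in pillar and Deiters-like cells.

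The markers that had given the group its label were then checked. *Col1a2* was discussed above. *Ptgds*, prostaglandin D synthase and a marker of interdental cells, reached 20 CPM in 48 of 67 cells (71.6%), with a median of 77.4 CPM and a highest value of 25306 CPM. Its share was 82.4% in Epyc-high cells, 76.4% in pillar and Deiters-like cells and 48.6% in cells of none of the classes, where the median was 8.95 CPM. On the plates numbered 1, no cell of the group had more than 637 CPM of *Ptgds*.

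The ridge lists of the study gave no clear assignment either. Of the 5 genes for a lateral ridge class (LGER1), which include *Dcn*, the median cell had 4 at 20 CPM, the same number as the median pillar and Deiters-like cell. The other lateral classes, LGER2 and LGER3, had medians of 3 and 2 of 5 genes in the Dcn-high, Epyc-low cells and 3 and 3 in the pillar and Deiters-like cells. For interdental cells, which form the epithelial surface of the spiral limbus, the median was 2 of 5 genes in both classes, and for the medial ridge (MGER), inner sulcus and outer sulcus lists it was 1 of 5, 1 of 4 and 2 of 5 genes in the Dcn-high, Epyc-low cells. *Otoa*, an interdental cell gene, was at 20 CPM in 4 of 67 cells. In Epyc-high cells the median was 2 of 5 genes for each of LGER1, LGER2, LGER3, interdental and MGER, the last of which includes *Epyc*. On the plates numbered 1, the medians for LGER1, LGER2 and LGER3 were 4, 4 and 4 in Epyc-high cells. In the Dcn-high, Epyc-low cells of those plates they were 4, 3 and 3.

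Genes of cochlear fibrocytes and of their precursors were strong. *Otor*, which encodes otoraplin, a secreted protein of cochlear mesenchyme, was at 20 CPM in 61 of 67 cells (91.0%), with a median of 5522 CPM and a highest value of 84413 CPM. *Car3*, a carbonic anhydrase gene, reached 20 CPM in 53 cells, *Coch*, for the fibrocyte matrix protein cochlin, in 32, and *Otos*, for otospiralin, in 15. In pillar and Deiters-like cells *Otor* was at 20 CPM in 56 of 72 cells, but at a median of 68.5 CPM.

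The cells were also rich in collagens shared by the tectorial membrane, the spiral limbus and cartilage. *Col2a1* was at 20 CPM in 64 of 67 cells with a median of 8022 CPM, *Col9a1* in 57 with 3441 CPM, *Col9a2* in 61 with 825 CPM and *Col11a1* in 56 with 547 CPM. Pillar and Deiters-like cells had these genes at similar shares (94.4, 87.5, 83.3 and 87.5%) with medians of 1320, 354, 438 and 466 CPM. The share of cells with them therefore did not tell the group apart from pillar and Deiters-like cells.

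Cartilage and bone genes each reached 20 CPM in fewer cells than these collagens did. *Comp* and *Col10a1*, genes of cartilage matrix and of hypertrophic cartilage, reached 20 CPM in no cell, and *Acan*, for aggrecan, in 17. *Cnmd*, which encodes chondromodulin, was at this level in 33 cells. *Runx2*, the transcription factor of bone-forming cells, was at 20 CPM in 28 cells, *Sp7*, which acts after it, in 10, *Alpl* in 19 and *Ibsp* in 5.

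Small leucine-rich proteoglycans lie in gene clusters, 1 of which holds the 2 genes of the rule. *Dcn* (chr10:97479609-97518143, GRCm38), *Lum* (chr10:97565128-97572703), *Kera* (chr10:97606879-97613692) and *Epyc* (chr10:97644068-97682454) follow each other on the plus strand. *Lum*, for lumican, was at 20 CPM in 52 of 67 cells with a median of 590 CPM, while *Kera*, for keratocan, was so in 1 cell. *Epyc*, limited by the rule, had a median of 15.7 CPM and no count in 24 cells. Per exon length, *Dcn* had a mean level of 705 RPKM, *Lum* of 689 RPKM, *Epyc* of 31.2 RPKM and *Kera* of 0.64 RPKM.

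A second cluster on chromosome 13 showed the same uneven use. *Ogn*, for osteoglycin (chr13:49608046-49624501), reached 20 CPM in 49 cells with a median of 773 CPM, but its neighbours *Omd* (chr13:49582462-49592822) and *Aspn* (chr13:49544443-49567565) in 15 and 12 cells. *Bgn*, for biglycan, was at this level in 57 cells with a median of 429 CPM. *Fmod* and *Prelp* reached it in 9 cells each and *Optc* in 1.

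The enzymes that modify and cross-link collagen accompanied these genes. *Serpinh1*, a collagen chaperone, was at 20 CPM in 59 of 67 cells, *P4hb* in 54, *Pcolce* in 52, *Bmp1* in 51, *Fkbp10* in 49 and *Loxl1* in 47. The median cell had 8 of the 12 genes of this list at 20 CPM, and the median pillar and Deiters-like cell had 7. Of 11 basement membrane genes, the median cell had 6. *Nid2* reached 20 CPM in 49 cells, *Nid1* in 48 and *Col4a1* in 47, whereas *Lama5*, a laminin chain of epithelial basement membranes, did so in 7 cells.

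Among genes at 20 CPM in at least 50% of the 67 cells, the 15 with the largest excess in share of cells, against the 252 other cells above the count limit, were led by *Dcn* itself and by matrix genes. *Islr*, a gene of stromal cells, was at 20 CPM in 79.1% of the cells and 22.6% of the others, *Mmp2*, a gelatinase, in 92.5 and 36.9%, *Tbx18* in 80.6 and 29.4%, and *Serpinf1*, for the secreted factor PEDF, in 89.6 and 40.5%. The rest were *Colec12*, *Pcolce*, *P3h3*, *Adamts12*, *Arhgap28*, *Cpxm1*, *Bgn*, *Col5a2*, *Cped1* and *Clmp*, with excesses from 45.5 to 50.9 points. In the other direction, only genes at 20 CPM in at least 50% of the other cells were ranked, which leaves out markers of single classes such as *Epcam*. Of these common genes, *mt-Ty* had the largest deficit, of 10.7 points. *S100a1* (5.41 points) and *Cryab* (3.73 points), which the rule limits, were among the 10 genes ranked, and the others were *Nkapd1*, *Bola2*, *Mrps21*, *Gabarapl2*, *Gm8292*, *Pgk1* and *Gm10076*.

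**Figure D3:**
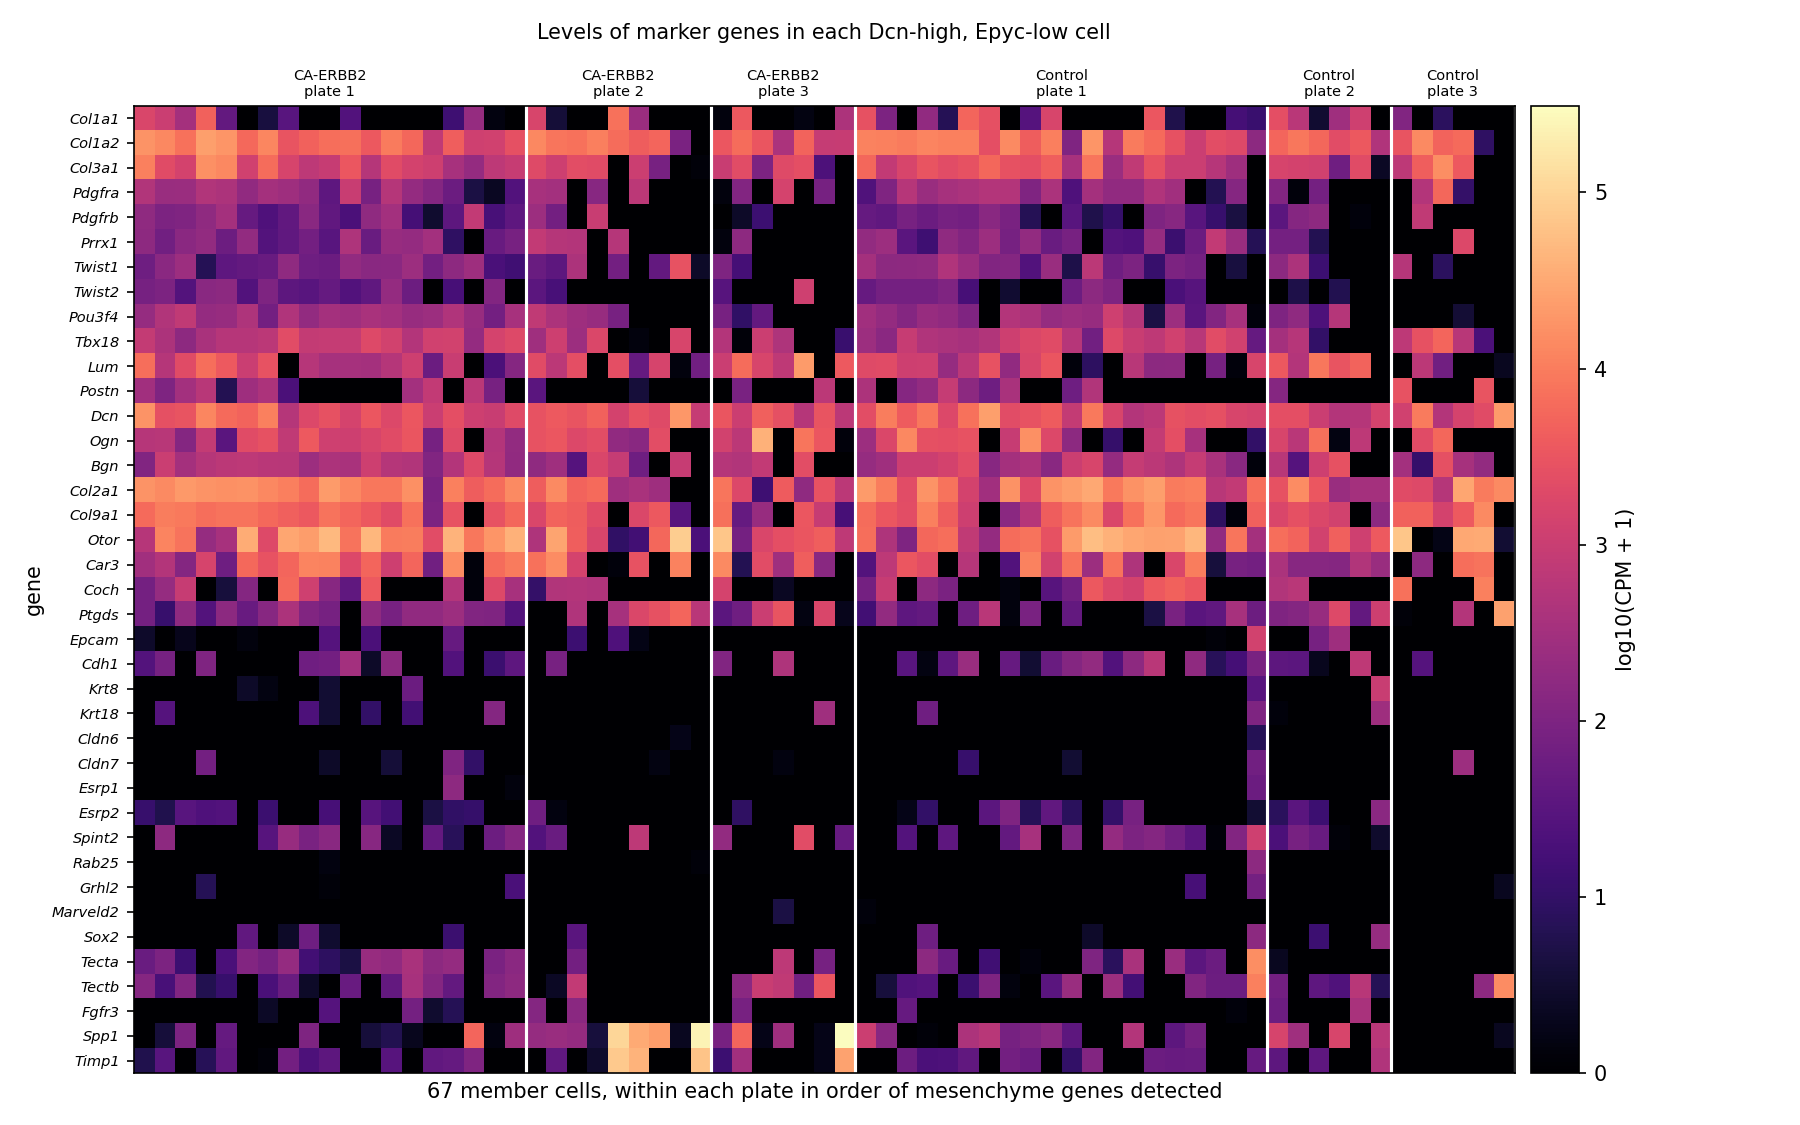
Level of marker genes (rows, log10 of CPM + 1 as colour) in each of the 67 Dcn-high, Epyc-low cells (columns), grouped by plate and ordered within each plate by the number of mesenchyme genes. The rows of *Col1a2*, *Otor* and *Col2a1* are bright across most cells. Those from *Epcam* to *Marveld2* are mostly dark, but *Cdh1* and *Spint2* reached 20 CPM in more cells than the rest of them. *Spp1* and *Timp1* are brightest in a few cells of CA-ERBB2 plates 2 and 3.

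Markers of other cell types that such a sort could hold were then looked up. Hair cell genes *Pou4f3*, *Atoh1*, *Gfi1* and *Ocm* had no count in any of the 67 cells, and *Myo7a* did not reach 20 CPM. *Pvalb*, for the calcium-binding protein parvalbumin, reached 20 CPM in 7 cells and 3033 CPM in 1 of them, while *Myo6*, an unconventional myosin gene that is not limited to hair cells, was at 20 CPM in 43. *Pecam1*, *Cdh5* and *Cldn5*, which define endothelium, reached 20 CPM in 1, 3 and 1 cells, whereas *Emcn*, an endothelial mucin gene of the same list, did so in 33. Of the 6 pericyte genes, *Acta2* and *Myh11* reached it in 0 cells, *Kcnj8* in 1, *Rgs5* in 3, *Tagln* in 4 and *Notch3* in 9, with at most 2 of them in a cell. Of the 6 melanocyte genes, *Mlana* had no count, *Tyr* and *Pmel* reached 20 CPM in 1 cell each, *Dct* in 8 and *Mitf* and *Kit* in 12 each, with at most 3 in a cell. The leukocyte gene *Ptprc* reached it in 2 cells. 2 cells, both on Control plate 2, had 6 and 5 of the 6 macrophage genes at 20 CPM, and no other cell of the group had more than 1.

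The gene that drives the Cre was seldom detected at collection. *Fgfr3* (chr5:33721674-33737068, GRCm38) was at 20 CPM in 8 of 67 cells, had no count in 55 and did not exceed 376 CPM, while 58 of 72 pillar and Deiters-like cells (80.6%) were at 20 CPM with a median of 406 CPM. *Erbb2* was at 20 CPM in 17 cells, its relative *Egfr* in 30, *Erbb3* in 0 and *Erbb4* in 3. Reads from the CA-ERBB2 transgene and from endogenous *Erbb2* cannot be told apart here, and GFP was not analysed as a gene of its own.

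Immediate early genes were high in nearly every cell. *Fos* was at 20 CPM in 63 of 67 cells with a median of 4180 CPM, *Egr1* in 62 with 1513 CPM and *Jun* in 61 with 498 CPM. In pillar and Deiters-like cells, *Fos* and *Egr1* had medians of 1923 and 909 CPM. Targets of TGF-β and BMP signalling were present as well, with *Id3* at 20 CPM in 61 cells, *Id2* in 57, *Id1* in 44 and *Tgfbi* in 44.

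The cells differed among themselves in fibrocyte and matrix genes. Over the 39 cells of the plates numbered 1, which had the most genes detected, *Otor* rose with *Coch* (Spearman's rho 0.71; 0.64 in 19 CA-ERBB2 and 0.74 in 20 Control cells) and fell with *Lum* (-0.58; -0.53 and -0.64). *Dcn* rose with *Lum* (0.68; 0.87 and 0.49) and with *Col1a2* (0.56), and *Col2a1* with *Col9a1* (0.83), whereas the rho of *Dcn* and *Ptgds* was 0.14. These are descriptions over cells of 2 plates, and the pairs were chosen after their values were seen.

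8 cells were not mesenchyme-marked, and they were of several kinds. The epithelium-marked cell, in well E2 of Control plate 1, had 9 epithelium and 9 cochlear epithelium genes, with 1337 CPM of *Epcam*, 15989 CPM of *Tecta*, 11121 CPM of *Tectb* and 154 CPM of *Sox2* beside 1491 CPM of *Dcn* and 158 CPM of *Col1a2*. The cell with both sets, in well A5 of CA-ERBB2 plate 1, had 8 mesenchyme and 4 epithelium genes.

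The 6 cells with neither set had between 535 and 3520 genes detected. The poorest, in well C6 of Control plate 3, held 21769 CPM of *Dcn*, 25306 CPM of *Ptgds* and 14609 CPM of *Tectb* among 535 genes. 1 cell of CA-ERBB2 plate 2 (well E2, 1829 genes) and 1 of CA-ERBB2 plate 3 (well C1, 3404 genes) had 231258 and 310626 CPM of *Spp1*, and well E6 of CA-ERBB2 plate 2 held 19821 CPM of *Dcn*. The last 2, in wells D12 of Control plate 2 and A11 of Control plate 3, had 1444 and 2209 CPM of *Dcn*, and the former also had 990 CPM of *Krt8* and 5 of the 6 macrophage genes.

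Next, CA-ERBB2 and Control cells were compared within the group, by plate. Of the cells above the count limit, 32.2%, 15.5% and 12.1% belonged to the group on CA-ERBB2 plates 1 to 3, and 33.9%, 16.7% and 12.2% on Control plates 1 to 3. The means were 19.9% ± 10.8 and 20.9% ± 11.4 (SD, n = 3 plates each), a difference of -1.01 points (two-sided exact permutation test, p = 0.7, where 0.1 is the smallest p possible). The share depended on the plate number more than on genotype, and within numbers 1, 2 and 3 CA-ERBB2 minus Control was -1.69, -1.15 and -0.18 points. Paired by number, the exact test gave p = 0.25, the smallest that 3 pairs allow.

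The make-up of the cells moved with the plate number too. Per plate, CA-ERBB2 cells had medians of 10, 6 and 5 mesenchyme genes and Control cells of 9, 5.5 and 4.5 (difference 0.67 genes, exact permutation test, p = 0.6). For epithelium genes the medians were 1, 0 and 1 in CA-ERBB2 and 1.5, 1.5 and 0 in Control plates (difference -0.33 genes, exact permutation test, p = 0.6). Mesenchyme-marked cells made up 31 of 35 CA-ERBB2 and 28 of 32 Control cells. Plate medians of genes detected were 9270, 3330 and 3045 in CA-ERBB2 and 8429, 4711 and 2472 in Control cells, and the part of this in the counts was not tested.

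**Figure D4:**
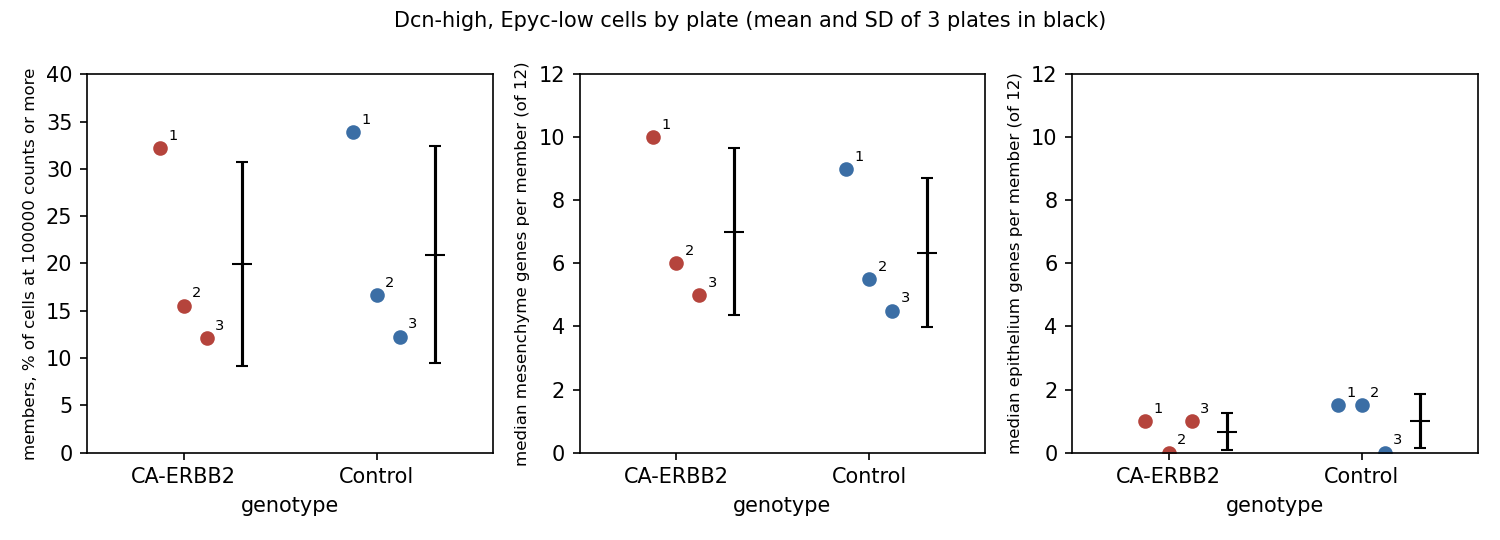
Share of the group among cells above the count limit (left, in %), and median number of mesenchyme (middle) and epithelium genes (right) per cell, for each plate (points, numbered) with the mean and SD of 3 plates in black. Points of the same number lie close together in the 2 genotypes, at 32.2 and 33.9% for the share on plates 1, and the genotypes overlap in each panel.

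By edgeR, no gene differed between CA-ERBB2 and Control cells of the group after correction. In simulated data, this fit recovered 0 of 200 genes changed 8-fold and 83 of 200 changed 64-fold. The lack of calls therefore does not show that the genotypes were alike. With edgeR's quasi-likelihood test on the plate sums, 0 of 13741 genes were called (0%), and 160 genes (1.16%) had an unadjusted p under 0.05, of which 81 were higher and 79 lower in CA-ERBB2 cells. DESeq2 called 14 genes, edgeR without its filter on low counts 42, and limma, on the mean CPM of each plate, 5. The plate sums held from 13702687 to 65048324 counts, and the median log2 fold change of all genes tested was 0.16. Values below are CPM of the plate sums scaled by TMM factors, in the order of plates 1 to 3.

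Genes that mark the group were not called. *Dcn* stood at 3357, 5562 and 2574 CPM in CA-ERBB2 and 3547, 1535 and 4178 CPM in Control cells (log2 fold change 0.31, SE 0.57), and *Col1a2* at 6042, 7707 and 3801 CPM against 5321, 4573 and 4635 CPM (0.27, SE 0.47). *Tbx18* had 692, 592 and 367 CPM against 681, 152 and 1423 CPM (-0.45, SE 0.83). *Otor* had 12784, 16283 and 15110 CPM against 11680, 4100 and 39961 CPM (-0.34, SE 0.63). The plates of the genotypes overlapped for each of these genes. *Erbb2* itself was at 17.4, 34.5 and 64.03 CPM against 15.0, 5.61 and 74.1 CPM (0.29, SE 1.71), which also overlapped.

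Across the lists, none of the 12 mesenchyme genes was called or had an unadjusted p under 0.05, 8 were higher and 4 lower in CA-ERBB2 cells, and their median log2 fold change was 0.32, beside 0.16 for all genes. The 10 fibrillar collagen genes had a median of 0.19, the 12 collagen-processing genes of 0.20, the 9 proteoglycan genes tested of 0.31 and the 6 tectorial membrane collagens of -0.20. Of the 12 epithelium genes, 7 passed the filter on low counts with a median of -1.13, and of the 12 cochlear epithelium genes 8 passed (median -2.32), all lower in CA-ERBB2 than in Control. No gene of these 2 lists had an unadjusted p under 0.05, and the 1 epithelium-marked cell was on a Control plate.

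Lists of signalling pathways showed no call either. The 10 ERK feedback genes tested, among them *Dusp6* and the Sprouty and ETV genes that follow receptor tyrosine kinase activity, had a median of -0.35, with 4 higher and 6 lower. *Dusp6* was at 112, 28.2 and 207 CPM in CA-ERBB2 and 31.8, 154 and 0 CPM in Control cells. The 8 AP-1 and early genes had a median of 0.06, the 13 TGF-β and BMP genes of -0.27, and the 3 ERBB family genes tested of -0.06. The 4 cycling genes tested had a median of 1.57, with *Cdk1* at 89.5, 115 and 0 CPM against 18.9, 4.30 and 0 CPM, which overlap.

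The SPP1, TIMP1, MMP9 and DMP1 network, which the study drew from these same cells and whose direction is therefore no independent evidence, had the highest median of any list. Of its 11 genes, 10 were tested, and all 10 had positive log2 fold changes with a median of 4.04. 5 of them had an unadjusted p under 0.05, and edgeR called none. DESeq2 called *Dmp1*, edgeR without its filter on low counts *Spp1*, *Timp1*, *Mmp9*, *Dmp1* and *Il12a*, and limma *Spp1* and *Timp1*. *Spp1*, for osteopontin, a secreted ligand of integrins and CD44, stood at 253, 70499 and 65675 CPM in CA-ERBB2 and 115, 768 and 0.083 CPM in Control cells (log2 fold change 7.27, SE 2.16, unadjusted p = 0.0051 and adjusted p = 1.00 by edgeR). CA-ERBB2 plate 1 lay below Control plate 2, so the genotypes overlapped.

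*Timp1*, an inhibitor of matrix metalloproteinases, had 16.7, 32021 and 5545 CPM in CA-ERBB2 and 23.4, 105 and 0 CPM in Control cells, and *Mmp9*, a gelatinase, 6.14, 3412 and 932 CPM against 0.47, 44.2 and 0.33 CPM. For both, CA-ERBB2 plate 1 fell within the range of the Control plates. *Dmp1*, a matrix protein of bone and dentin, was the network gene whose plates did not overlap, with 90.9, 186 and 1077 CPM against 3.37, 7.13 and 0 CPM (log2 fold change 7.01, SE 1.82, unadjusted p = 0.0021 by edgeR). It had counts in 12 CA-ERBB2 and 3 Control cells, and 59.7% of them came from 1 cell.

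Single cells carried much of this signal. All 4 network genes reached 100 CPM in 2 of the 35 CA-ERBB2 cells of the group, against 36 of all 177 CA-ERBB2 cells, and in 0 of 32 Control cells of the group and 0 of all 177 Control cells, which allow shares of up to 9.38% and 1.69%. The 2 cells were the wells E2 and C1 of CA-ERBB2 plates 2 and 3 named above. Neither was mesenchyme-marked, and they had 897 and 666 CPM of *Dcn*, near the lower limit. Mesenchyme-marked cells of CA-ERBB2 plate 2 also had high levels of network genes. Well E5 had 109456 CPM of *Spp1* and 75859 CPM of *Timp1*, and well D3 had 32312 and 42660 CPM. Well A3 had 23632 CPM of *Spp1* and 0 CPM of *Timp1*. Without the 2 cells with all 4 genes, the log2 fold change of *Spp1* was 5.12 in place of 7.27 and that of *Timp1* 7.38 in place of 8.19. That of *Mmp9* was 4.85 in place of 6.59 and that of *Dmp1* 4.64 in place of 7.01. *Spp1* reached 100 CPM in 3, 7 and 3 cells of CA-ERBB2 plates 1 to 3 and in 7, 4 and 0 cells of the Control plates, and *Timp1* in 1, 3 and 2 against 1, 1 and 0.

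Other cell types whose genes could move with the network were looked up. The 6 macrophage genes had a median of 0 at 20 CPM per cell on the CA-ERBB2 plates, with at most 1 in any cell. Their summed level reached 2146 CPM in a cell of CA-ERBB2 plate 2. On Control plate 2, which had the highest *Spp1*, *Timp1* and *Mmp9* of the Control plates, the median was 0.5 genes and the highest counts were 6 and 5, with a summed level of up to 6279 CPM in a cell, and the part of such cells in the network values was not tested. The 6 osteoblast genes, which include *Dmp1*, had medians per plate of 1, 2 and 0 in CA-ERBB2 and 1, 1 and 0 in Control, with a highest count of 4 and 5 genes in a cell.

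**Figure D5:**
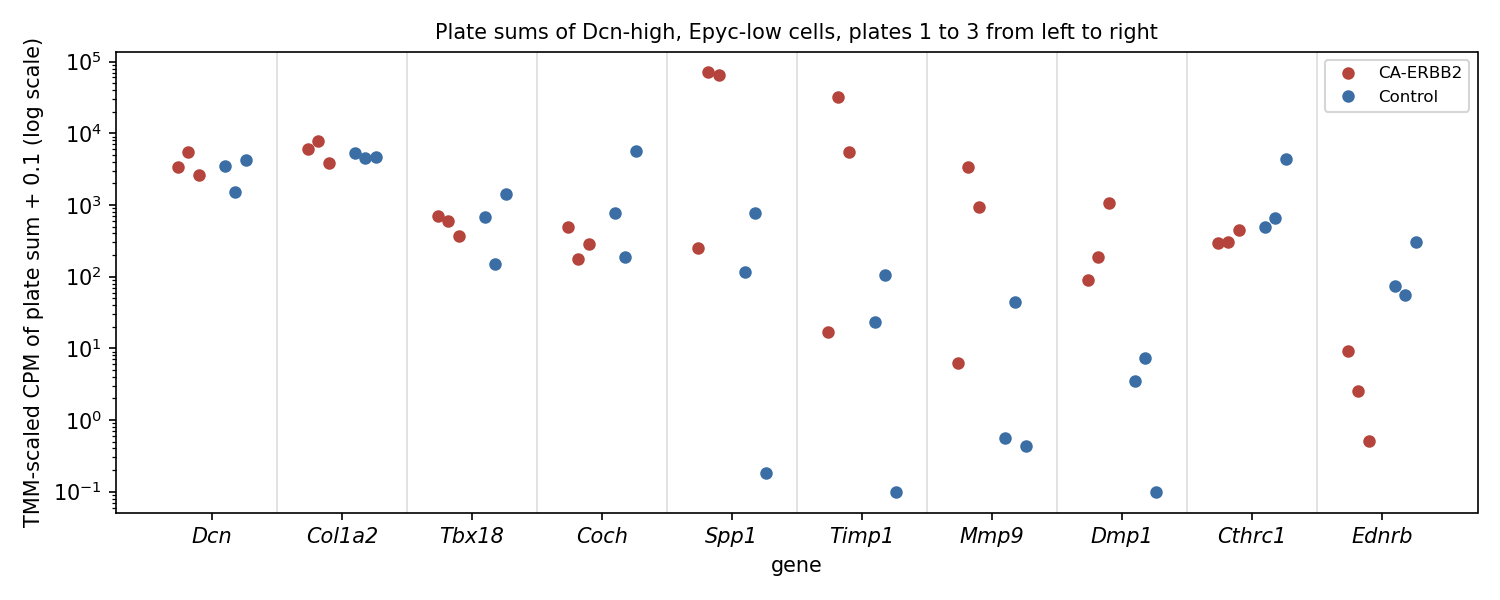
TMM-scaled CPM of the plate sums (log axis, 0.1 added) for 10 genes in CA-ERBB2 (red) and Control (blue), each point a plate and plates 1 to 3 from left to right within a genotype. *Dcn*, *Col1a2* and *Tbx18* overlap, *Spp1*, *Timp1* and *Mmp9* are high on CA-ERBB2 plates 2 and 3 but not on plate 1, and *Dmp1*, *Cthrc1* and *Ednrb* do not overlap between genotypes. *Cthrc1* and *Ednrb* were named by a rule that required this.

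Beyond the lists, 533 of 13741 genes (3.88%) had every CA-ERBB2 plate above every Control plate and 259 (1.88%) every CA-ERBB2 plate below. Of these, 374 and 226 reached a mean of 20 CPM in 1 genotype, and the 10 with the smallest p in each direction are named here, none of them called by edgeR. For a single gene, such a separation of 3 plates from 3 has a two-sided exact permutation p of 0.1. The shares of separated genes lie below what this p would give. Separation was therefore a rule for naming genes and is no evidence of a difference. DESeq2 called 8 of the 10 higher genes (not *Dzip1l* or *Lrpprc*) and 1 of the 10 lower genes (*N4bp2l1*), which made up 9 of its 14 calls. In 10 of the 20 genes a single cell held more than 50% of the counts, while *Txndc15*, *Cthrc1* and *Cryzl1* were each detected in more than 20 cells of both genotypes. In 9 of the 10 higher genes CA-ERBB2 plate 1 was the lowest CA-ERBB2 plate, and in all 10 lower genes Control plate 3 was the highest plate.

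Of the higher genes, 6 of the 10 had no count in Control cells and were seen in 3 to 9 CA-ERBB2 cells. For such a gene, 0 of 32 Control cells allows a share of up to 9.38% of cells. The fold bounds and the ratio below are for pooled reads and cover counting error only, not the spread between cells or plates. *Knstrn*, for a kinetochore and spindle protein, had 10.7, 39.9 and 32.2 CPM in CA-ERBB2 cells from 9 cells and was at least 686-fold higher, and *Hmmr*, a spindle-associated hyaluronan receptor gene, had 18.6, 71.5 and 42.9 CPM from 5 cells and was at least 1145-fold higher. *Cenpf*, another mitotic gene, had 17.8, 171 and 130 CPM from 4 cells against 0.79, 0 and 0 CPM from 1 cell. *Gimap8*, *Otx1*, *Gm11772* and *Ctla2a* were at least 3374, 3745, 754 and 403-fold higher, from 4, 3, 6 and 4 cells. *Dzip1l* had 3 Control counts, and its ratio of 2778 has a counting interval from 950 to 13475, but 97.6% of its counts came from 1 cell.

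*Lrpprc*, a mitochondrial RNA-binding protein gene, was seen in more cells. It stood at 51.0, 1903 and 229 CPM in 20 CA-ERBB2 cells and at 35.2, 17.2 and 0 CPM in 14 Control cells (log2 fold change 5.38, SE 1.86, unadjusted p = 0.013 by edgeR), with 75.9% of the counts in 1 cell.

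The lower genes included 2 with connective tissue or receptor roles. *Cthrc1*, a secreted collagen-associated protein gene, stood at 295, 306 and 448 CPM in CA-ERBB2 and 492, 657 and 4403 CPM in Control cells (log2 fold change -2.40, SE 0.87, unadjusted p = 0.016 by edgeR), and was detected in 23 and 21 cells. *Ednrb*, the endothelin receptor type B gene, stood at 9.03, 2.45 and 0.40 CPM against 74.1, 55.1 and 305 CPM (-5.19, SE 1.71, unadjusted p = 0.0095 by edgeR) and was detected in 8 and 15 cells. On Control plate 3, all counts of *Ednrb* came from 1 cell.

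*Txndc15* (log2 fold change -2.87), *Cryzl1* (-3.07), *Trim32* (-3.73), *Snx18* (-3.90), *Pigq* (-3.99) and *Mmp15* (-6.37) were also lower on every CA-ERBB2 plate. *Txndc15* was detected in 25 CA-ERBB2 and 26 Control cells, the most of these 6. *Gm44224* had no CA-ERBB2 count and was at least 285-fold lower in pooled reads, with 93.6% of its counts in 1 cell. *N4bp2l1* had 2 CA-ERBB2 counts, and the ratio of Control to CA-ERBB2 of 942 has a counting interval from 260 to 7782.

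3 list genes with an unadjusted p under 0.05 were lower without a clean separation. *Coch* stood at 493, 177 and 284 CPM in CA-ERBB2 and 776, 188 and 5712 CPM in Control cells (log2 fold change -2.81, SE 1.04, unadjusted p = 0.018 by edgeR), *Chad*, a cartilage matrix gene, at 3.17, 44.7 and 27.0 CPM against 24.7, 372 and 626 CPM (-3.77, SE 1.37) and *Lamb2*, a laminin chain, at 51.5, 13.4 and 48.9 CPM against 52.2, 15.7 and 1526 CPM (-3.81, SE 1.49). For *Coch* and *Lamb2* Control plate 3 stood far above the other plates, and without it the log2 fold change of *Lamb2* was 0.17.

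Finally, the genotype effect was compared between the Dcn-high, Epyc-low cells and the 34 Epyc-high cells of the same plates. The difference of effects was called for 3 of 15771 genes (0.0190%), *Spp1*, *Timp1* and *Malat1*, and 99 genes had an unadjusted p under 0.05. The log2 fold change was larger in the Dcn-high, Epyc-low cells by 3.03 for *Spp1* (SE 0.39, adjusted p = 1.52e-10 by edgeR), by 4.15 for *Timp1* (SE 0.77, adjusted p = 0.00061 by edgeR) and by 3.24 for *Malat1* (SE 0.64, adjusted p = 0.0019 by edgeR). None of the 3 was called with DESeq2, which called 321 genes, or by edgeR without its trend of spread with abundance, which called 0. *Mmp9*, of the same network as *Spp1* and *Timp1*, had a difference of -7.18 (SE 2.02, unadjusted p = 0.00038 by edgeR) and was not called. Fits of each class alone gave *Mmp9* 6.59 in the Dcn-high, Epyc-low cells and 4.34 in Epyc-high cells, so the sign of its difference went against them. *Dmp1* and *Ank* had differences of 0.43 (SE 10.9) and 0.70 (SE 4.51).

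The plate sums show what these differences rest on. In Epyc-high cells, *Spp1* stood at 18.3, 80248 and 27199 CPM (without TMM scaling) on CA-ERBB2 plates 1 to 3 and at 298, 184 and 6100 CPM on Control plates 1 to 3, and 98.9% of the last value came from 1 cell. In the Dcn-high, Epyc-low cells the same values were 341, 54707 and 55045 CPM against 152, 703 and 0.073 CPM. *Malat1* stood at 254 CPM in the Dcn-high, Epyc-low cells of Control plate 3, against 4640 to 15699 CPM on the other 5 plates. In Epyc-high cells *Malat1* was at 11982, 3949 and 187 CPM on the CA-ERBB2 plates and 20995, 5522 and 2027 CPM on the Control plates, and the 187 CPM came from 3 cells, with 99.9% of the counts in 1. Without Control plate 3, the differences fell to 1.20 for *Spp1*, 2.31 for *Timp1* and 2.48 for *Malat1*, and none was called.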

How the data were processed

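Single GFP+ cells from P3 cochleae were sorted into wells, and cDNA was made with SMART-Seq Single PLUS. The authors mapped reads to GRCm38 (Gencode M25) with STAR 2.7.6a and counted them on exons with featureCounts of Subread 2.0.1. The deposited values are whole-number counts for 55367 genes in each of 354 wells, without normalization. CPM is a count scaled to a total of 1000000 in its well. Totals ran from 1443 to 5178221 counts, and reads carry no molecular identifiers. The exact binomial intervals at 95% treat cells or reads as independent. They cover counting error only and not the spread between plates. Doublets were gated out by scatter during the sort, and no doublet caller was run.

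The number in each title was taken as the plate, and the plate as the replicate (3 per genotype). Pups were pooled, so p-values measure the spread between plates. For each plate the counts of its members among the 67 cells were added up, and these sums entered edgeR 4.0.16 (R 4.3.3) with its quasi-likelihood test, after filterByExpr and TMM scaling. A call needed both an adjusted p (Benjamini-Hochberg) below 0.05 and a log2 fold change beyond 1. A class by genotype term, with the 6 plates as a block, tested the difference from Epyc-high cells. Shares and medians per plate were compared by two-sided exact permutation tests in scipy 1.17.1. A gene with no count in a genotype is given a bound from 3 counts over that genotype, and one with 1 to 3 counts a ratio with its exact counting interval. Both are for pooled reads and leave out the spread between cells and plates. Levels per length (RPKM) used exon lengths of Gencode M21 on GRCm38, and coordinates are from the same annotation.

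The members and the 36 gene lists (244 genes) were chosen with earlier results of these data known. Beside the genes of the lists, the genes named are the 15 with the largest excess in share of cells (of genes at 20 CPM in at least 50% of the 67 cells) and the 10 with the largest deficit (of genes at 20 CPM in at least 50% of the other cells), and up to 10 in each direction with the smallest p whose plates did not overlap between genotypes and whose mean was at least 20 CPM in 1 genotype. In simulated data for the genotype comparison, 0 of 200 genes changed 8-fold and 83 of 200 changed 64-fold were recovered, among 11856 and 11855 genes, with 0 and 5 false calls. For the class by genotype term, 0 of 200 genes changed 64-fold were recovered among 15468 genes at a simulated dispersion of 1, and 200 of 200 among 15525 genes at 0.1. Alternatives were DESeq2 1.42.0, limma 3.58.1 on the mean CPM of each plate, the plate number as a block, all genes kept whatever their counts, other limits of the rule, and each plate left out in turn. The correlations of deviations between same-numbered plates were 0.20, -0.014 and 0.048, and the main fit did not pair the plates by number. The share of the group and the number of genes detected did move with the plate number. The main fit does not take account of that, whereas the alternative with the number as a block does.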

Additional observations from a re-analysis of the deposited data

Results flagged for a closer look

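3 results were marked because the genotype effect differed between 2 classes of cells by a test of the difference itself (edgeR, class by genotype term, 6 plates). *Spp1* had a log2 fold change higher by 3.03 in Dcn-high, Epyc-low cells than in Epyc-high cells, *Malat1* by 3.24 and *Timp1* by 4.15. *Mmp9*, of the same network as *Spp1*, had a difference of -7.18 and was not called.

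Each call was lost when certain plates were left out. The calls of *Spp1*, *Timp1* and *Malat1* were all lost without Control plate 3, where the differences were 1.20, 2.31 and 2.48. Without CA-ERBB2 plate 1 the differences of *Spp1* (1.66, adjusted p = 0.094 by edgeR) and *Timp1* (3.61, adjusted p = 0.061 by edgeR) were not called, without CA-ERBB2 plate 2 that of *Timp1* was not (4.23, adjusted p = 1.00 by edgeR), and without Control plate 1 that of *Malat1* was not (3.73, adjusted p = 0.071 by edgeR). On CA-ERBB2 plate 3, 97.9% of the *Spp1* and 98.6% of the *Timp1* counts of the Dcn-high, Epyc-low cells came from 1 cell, and Control plate 3 held 1 *Spp1* and 0 *Timp1* counts in 6 cells. The cause of these differences was not tested.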

How the results depend on the processing

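No gene was called between genotypes by edgeR, with each plate left out between 0 and 2 genes (the 2, *Gm37710* and *Dnaaf4*, without CA-ERBB2 plate 2), with DESeq2 14, without the filter on low counts 42 and with limma 5 (*Spp1*, *Timp1*, *Malat1*, *Gm37376*, *Lgals1*); genes outside the naming rule were looked up after their values were seen. With the plate number as a replicate block, 0 genes were called and 59 had an unadjusted p under 0.05, the share differed by -1.01 points, and the log2 fold changes of *Tbx18* and *Otor* turned to 0.012 and 0.23. Not every plate was closest to its own number, as CA-ERBB2 plate 2 correlated best with Control plate 3 (0.045). The mesenchyme-marked cells alone and the cells without the 2 carrying all 4 network genes (both chosen after seeing the data) gave 0 calls. The class by genotype term gave 1 call without the filter, 321 with DESeq2, 0 without the abundance trend (the last 2 chosen after seeing the data) and 1 to 5 with a plate left out.

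The difference in share was 0.37 points with *Dcn* at 1000 CPM, 1.69 with all wells as denominator, 0.66 without wells A12 to D12, and -7.14 to 5.47 with a plate left out. With 6 of 12 genes needed, 74.6% of the cells were mesenchyme-marked. With a plate left out, the difference in mesenchyme genes ran from -0.83 to 2.00 and that in epithelium genes from -0.83 to 0, and at 100 CPM the latter was 0.17.

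Log2 fold changes that were not called and turned were those of *Erbb2* (-0.58 with *Dcn* at 1000 CPM, -0.65 in mesenchyme-marked cells, -0.55 without the 2 cells, -0.29 to 1.92 with a plate left out), *Dcn* (-0.059 to 0.60 with a plate left out), *Col1a2* (-0.0064 with limma), *Tbx18* (0.091 with *Dcn* at 1000 CPM, -0.85 to 0.41 with a plate left out), *Otor* (0.43 with limma, -0.72 to 0.91 with a plate left out) and *Lamb2* (0.11 in mesenchyme-marked cells, -4.23 to 0.17 with a plate left out, the highest without Control plate 3). Epithelium-marked cells alone (1 cell) and cells that were not mesenchyme-marked (8) were too few on most plates to be fitted. Each plate held 6 to 20 of the cells, and in simulated data 0 of 200 genes changed 8-fold and 83 of 200 changed 64-fold were recovered in the genotype comparison.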
